A study of Mus musculus with 2 samples.

Results

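Open chromatin inside protein-coding sequence, away from promoters, was described in the thymus of newborn mice. The set holds the DNase-seq peaks of replicate 1 that overlapped a peak of replicate 2, lay on an autosome, had their midpoint in coding sequence (CDS) and lay more than 1000 bp from every annotated coding transcription start site (TSS). There were 1919 such peaks, 2.49% of the 77183 distal shared autosomal peaks. The remainder comprised 1735 peaks in untranslated exons, 37720 in introns and 35809 in intergenic sequence. Of 3488 shared autosomal peaks with a midpoint in CDS, the other 1569 lay within 1000 bp of a coding TSS. No measured signal beyond the listing of a peak in both replicates entered the choice.

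Most coding exons lie far from the promoter that starts their transcript, and most known enhancers lie in introns or between genes. DNA inside a coding exon is read in triplets as protein, and the same bases can also be bound by transcription factors, so that an exon can hold regulatory DNA of its own gene or of a neighbour. DNase I cleaves chromatin where nucleosomes are displaced, which makes sites such as enhancers, promoters and sites of the architectural protein CTCF visible as peaks. T cells mature in the thymus, where thymocytes are the most numerous cells.

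The series held 1 group, thymus of strain B6NCrl at postnatal day 0, with male and female animals pooled and no genetic change or treatment in the labels. Both of its 2 biological replicates carry the same donor label and different biosample labels, so the spread over n = 2 may be partly technical. Replicate 1 had 154812 peaks of 150 bp and replicate 2 had 139702, each with 1 deposited score per peak, and their sequencing depth is unknown. Promoter peaks shared by the replicates were listed for the T cell genes Cd3e, Cd4, Cd8a, Rag1, Rag2, Lck and Ptcra, and none for Foxn1, the regulator of thymic epithelium, or for the liver gene Alb. An exact sign-flip permutation over 2 replicates cannot go below p = 0.5, so no p-values are given. Differences are set against the SD over each replicate's own list of distal peaks, which holds unshared peaks too.

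Sequences of 10 of these peaks are printed because they carry the 3 patterns described in the results, namely CTCF consensus matches, runs of CpG dinucleotides, and matches to T lineage consensus sequences in T lineage genes. All are from GRCm38, written 5′ to 3′ on the sense strand of the host gene. The first set shows peaks with the CTCF consensus, whose bases are in capitals. They lay at chr14:20661056-20661205 in exon 4 of 4 of Synpo2l (an actin-associated protein of heart and skeletal muscle, minus strand) and at chr6:47799176-47799325 in exon 8 of 10 of Pdia4 (a protein disulfide isomerase of the endoplasmic reticulum, minus strand). The other lay at chr2:90474896-90475045 over exon 2 of 24 of Ptprj (a receptor tyrosine phosphatase, minus strand). In Synpo2l and Pdia4 the capitals are coding bases, and in Ptprj they lie outside the CDS.
Synpo2l: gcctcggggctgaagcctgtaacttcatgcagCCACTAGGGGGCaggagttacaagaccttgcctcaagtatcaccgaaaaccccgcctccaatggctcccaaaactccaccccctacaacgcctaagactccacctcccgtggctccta
Pdia4: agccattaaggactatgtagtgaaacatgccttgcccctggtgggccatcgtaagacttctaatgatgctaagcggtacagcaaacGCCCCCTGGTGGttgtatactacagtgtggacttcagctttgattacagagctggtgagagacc
Ptprj: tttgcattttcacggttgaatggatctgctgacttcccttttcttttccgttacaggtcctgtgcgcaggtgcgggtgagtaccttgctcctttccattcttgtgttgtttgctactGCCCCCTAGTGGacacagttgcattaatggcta

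The second set shows CpG-rich peaks, with every CG in capitals. The first lay at chr6:124745576-124745725 over exon 6 of 10 of Atn1 (atrophin-1, a transcriptional corepressor, minus strand). The second lay at chr8:84639516-84639665 in exon 47 of 47 of Cacna1a (the pore subunit of the P/Q-type calcium channel, plus strand). The other lay at chr16:30067076-30067225 in exon 4 of 4 of Hes1 (a transcriptional repressor that Notch signalling induces, plus strand). The 150 bases held 28 CG in Atn1, 31 in Cacna1a and 21 in Hes1. All bases of the Cacna1a and Hes1 peaks were coding. In Atn1 58% were, so that some of its CG lie outside the CDS.
Atn1: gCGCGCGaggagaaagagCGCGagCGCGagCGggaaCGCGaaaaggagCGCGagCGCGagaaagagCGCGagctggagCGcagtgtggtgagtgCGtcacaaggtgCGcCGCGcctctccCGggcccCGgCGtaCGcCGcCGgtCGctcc
Cacna1a: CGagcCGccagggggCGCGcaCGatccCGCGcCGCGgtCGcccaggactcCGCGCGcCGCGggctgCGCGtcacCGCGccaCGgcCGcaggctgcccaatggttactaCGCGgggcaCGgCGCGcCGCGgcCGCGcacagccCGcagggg
Hes1: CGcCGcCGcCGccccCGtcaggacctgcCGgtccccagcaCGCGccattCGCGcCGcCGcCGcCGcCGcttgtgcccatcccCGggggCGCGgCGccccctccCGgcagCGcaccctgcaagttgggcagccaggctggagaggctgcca

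The third set shows peaks in genes of the T lineage, with capitals for matches to RUNX (TGTGGT or TGCGGT), ETS (AGGAAG or CGGAAG) and the E-box CACCTG on either strand. They lay at chr2:26468476-26468625 in exon 25 of 34 of Notch1, the receptor that starts the T cell program (minus strand), and at chr3:89379836-89379985 in exon 3 of 3 of Zbtb7b, which encodes the CD4 lineage factor ThPOK (minus strand). Another lay at chr11:52258816-52258965 over exon 5 of 10 of Tcf7, which encodes TCF1 (minus strand), and the last at chr6:71374496-71374645 over exon 2 of 5 of Cd8a, a chain of the CD8 co-receptor (plus strand). A match is a stretch of letters and not a measured binding site. All bases of the Notch1 and Zbtb7b peaks were coding, as were 62.0% in Tcf7 and 70% in Cd8a. In Tcf7 the RUNX match and the last ETS match lie outside the CDS, and the E-box spans the edge of the exon. Only the other ETS match of Tcf7 is wholly coding. The E-box of Cd8a lies in coding bases.
Notch1: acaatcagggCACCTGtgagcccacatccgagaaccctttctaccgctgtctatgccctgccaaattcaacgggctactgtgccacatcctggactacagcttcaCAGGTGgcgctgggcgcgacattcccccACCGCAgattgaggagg
Zbtb7b: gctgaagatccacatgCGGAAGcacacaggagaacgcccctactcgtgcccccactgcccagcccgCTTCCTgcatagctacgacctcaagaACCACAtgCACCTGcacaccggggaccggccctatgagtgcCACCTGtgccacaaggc
Tcf7: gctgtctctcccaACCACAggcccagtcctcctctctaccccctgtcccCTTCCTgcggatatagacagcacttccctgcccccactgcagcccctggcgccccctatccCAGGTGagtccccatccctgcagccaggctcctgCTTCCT
Cd8a: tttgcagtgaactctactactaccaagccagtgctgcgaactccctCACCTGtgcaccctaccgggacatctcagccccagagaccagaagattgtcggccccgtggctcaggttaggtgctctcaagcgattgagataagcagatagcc

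Distal coding exons were denser in open sites than other distal sequence. They held 68.0 shared peaks per Mb, against 55.8 per Mb in untranslated exons, 42.6 in introns and 25.8 in intergenic sequence. The ratio of coding exons to introns was 1.60 for shared peaks. In the own lists it was 1.46 in replicate 1 and 1.81 in replicate 2, or 1.64 ± 0.245 (SD, n = 2), so the excess over 1 was larger than the spread between replicates. The replicates differed in this ratio, since replicate 2 listed more distal coding-exon peaks than replicate 1 (2931 against 2653) from a smaller list. By chromosome the density of the shared peaks ranged between 51.2 per Mb on chromosome 12 and 89.5 per Mb on chromosome 19. Of the 1919 peaks, 43 overlapped another of the set, so that 1897 separate stretches of sequence were covered.

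The density difference turned round within ranges of base composition. Coding exons are richer in G and C than introns, and peaks were more frequent in GC-rich sequence of both kinds. Within ranges of GC content (each peak or position read over 150 bp), coding exons were less dense in peaks than introns between 40% and 70% GC. The densities were 28.1 per Mb in coding exons and 39.1 in introns at 40 to 50% GC, 70.4 and 109.6 at 50 to 60%, and 168 and 237 at 60 to 70%. The ratios from the own lists were 0.798 ± 0.107, 0.683 ± 0.0609 and 0.795 ± 0.0480 (SD, n = 2), each further below 1 than the spread between replicates. At 70% GC or more the order turned, with 884 peaks per Mb in coding exons and 676 in introns (own lists 1.39 ± 0.167). Below 40% GC there were only 14 coding-exon peaks, and the ratio was 0.838 for shared peaks and 1.40 ± 0.505 in the own lists. With introns weighted to the GC content of coding exons, the overall ratio was 0.716 (own lists 0.778 ± 0.0574), against 1.60 without weighting.

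**Figure D1:**
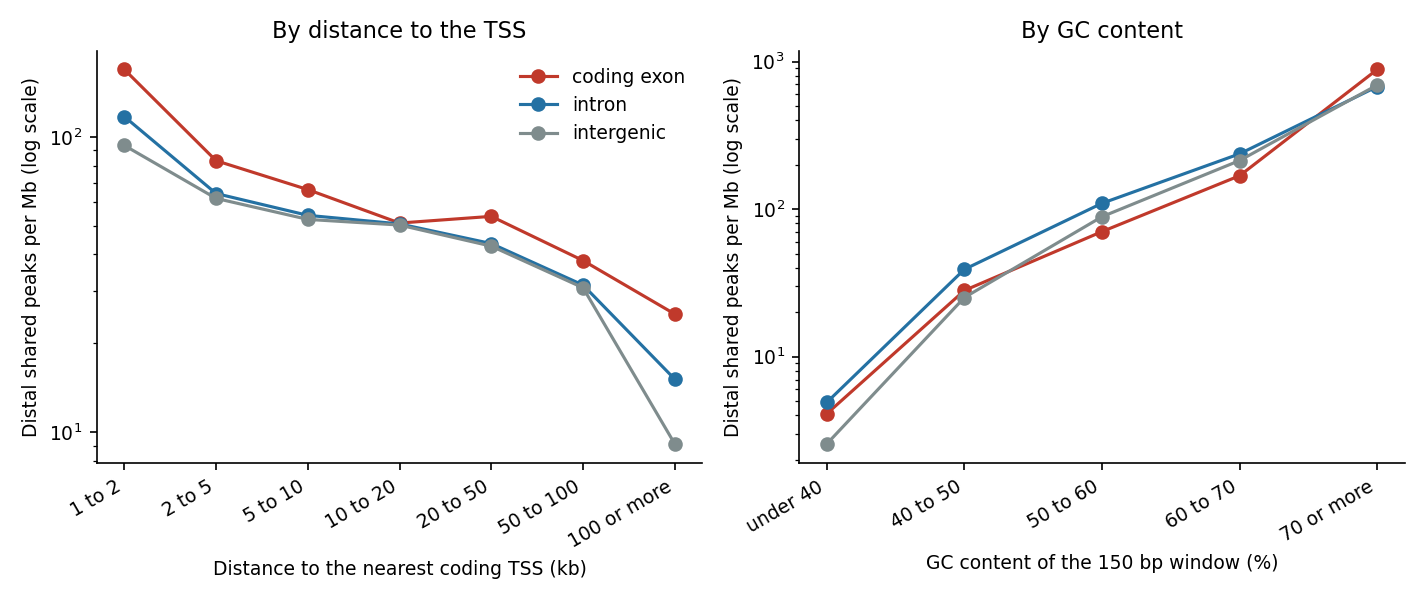
Density of distal shared peaks per Mb (log scale) in coding exons, introns and intergenic sequence, by distance to the nearest coding TSS in kb (left) and by GC content of 150 bp in percent (right). Coding exons lie at or above introns in every distance range, and below introns between 40 and 70% GC.

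Coding-exon peaks were also placed nearer to promoters than other distal peaks. The median distance to the nearest coding TSS was 6.63 kb (quartiles 2.30 and 18.05 kb), against 15.6 kb for peaks in introns and 28.7 kb for intergenic peaks. In the own lists of coding-exon peaks the medians were 6969 bp in replicate 1 and 6720 bp in replicate 2. The density was 169 per Mb in coding exons and 117 in introns at 1 to 2 kb from a TSS, 83.1 and 64.3 at 2 to 5 kb, and 51.1 and 50.7 at 10 to 20 kb. At 100 kb or more it was 25.1 and 15.1 per Mb. The nearest coding TSS was that of the host gene for 1445 peaks (75.3%). A TSS of any biotype, which includes non-coding and incompletely processed transcripts, lay within 1000 bp of 462 peaks (24.1%), against 9.46% of intron peaks. The share of bases that near to such a TSS was 15.2% in distal coding exons and 4.87% in introns.

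The peaks at the ends of the distance range were of ordinary strength. The nearest lay 1002 bp from the TSS in the only exon of Sox4, an HMG-box factor gene, and scored 76 and 78 in replicates 1 and 2. It was followed by Synj1 and Eepd1 at 1004 bp, Cnnm2 at 1007 bp and Akap13 at 1008 bp. Just outside the limit were coding-exon peaks of Znhit2 at 999 bp, Tut7 at 997 bp, Stk35 and Gm45713 at 994 bp and Igfbp5 at 993 bp. Median scores were 49 and 47 for the 170 peaks less than 250 bp beyond the limit, and 55 and 55 for the 204 left out less than 250 bp inside it. The farthest peak lay 287731 bp from any coding TSS, in exon 8 of 11 of the zinc finger gene Glis3, and scored 77 and 86. Next were Zfhx3 (241967 bp, last exon), Tenm2 (240904 bp), Angpt1 (238686 bp) and Slco3a1 (224683 bp).

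By exon order, 159 peaks (8.29%) lay in the first coding exon, 1155 (60.2%) in an internal coding exon, 444 (23.1%) in the last and 161 (8.39%) in the only coding exon of the representative transcript. With a limit of 2500 bp from the TSS in place of 1000 bp, the share was 4.34% for first and 2.35% for only coding exons. The median peak lay in exon 5, in an exon of 261 bp, and the highest exon number was 340, in the giant muscle gene Ttn. Wholly inside the exon lay 905 peaks (47.2%). Of the distal coding exons of longest transcripts, 1744 of 163648 (1.07%) held at least 1 peak.

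Per base, the order was different. Internal exons, which make up 74.9% of distal coding bases, had the lowest density, 55.2 shared peaks per Mb. The last coding exons had 87.9, the only coding exons 139.6 and the first coding exons 141 per Mb. In the own lists the values were 81.4 ± 6.30, 124.7 ± 7.81, 199.5 ± 12.3 and 202.5 ± 16.6 per Mb in the same order (SD, n = 2). The gaps from internal to last and from last to the other classes exceeded the spread between replicates, and first and only exons did not differ beyond it. Part of the set lay near promoters. Over 5 kb from a TSS, first coding exons had 89.3 per Mb, internal exons 48.7 and last exons 67.7, and at 1 to 2 kb they had 260.6, 110.9 and 167.9. Density also differed by exon length, with 52.2 per Mb in exons under 100 bp and 88.2 in those of 1000 bp or more. It was 50.8 per Mb within 25 bp of an exon edge and 96.5 at 150 to 499 bp from the nearest edge. Among internal exons alone, density was 54.8 per Mb under 300 bp, 67.4 at 300 to 999 bp and 42.6 at 1000 bp or more. Within that class the gain with length thus did not hold over the whole range.

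**Figure D2:**
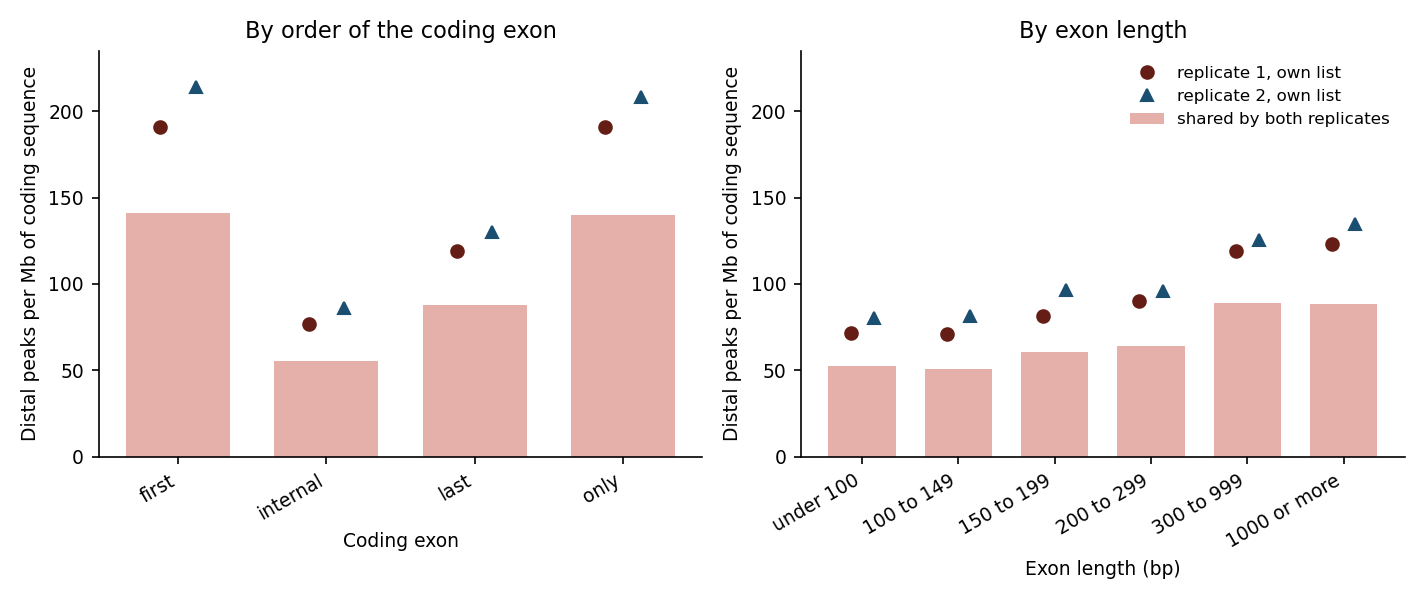
Distal peaks per Mb of distal coding sequence by order of the coding exon (left) and by exon length in bp (right). Bars give the peaks shared by both replicates and markers give each replicate's own list. First and only coding exons stand above last exons, and internal exons are lowest in both replicates.

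The strength of the peaks was close to that of other distal peaks. The score, which the authors deposited and which runs up to 150, had a median of 57 in replicate 1 and 51 in replicate 2 for coding-exon peaks, against 56 and 46 for intron peaks. Quartiles were 40.5 and 80 in replicate 1 and 35 and 74 in replicate 2. As percentiles within each list the medians were 61.6 and 60.9 for coding-exon peaks and 60.6 and 56.0 for intron peaks. In the own lists, coding-exon peaks were above intron peaks by 5.11 percentile points in replicate 1 and 1.37 in replicate 2. The size of the difference thus depended on which peaks were compared. In bulk tissue, a low score from few open cells and one from weaker opening in each cell cannot be told apart. Scores of the 2 replicates had a Spearman's rho of 0.893 over the 1919 peaks, a description across peaks of the same tissue. For intron peaks rho was 0.887. Scores in both replicates above the 90th percentile were reached by 124 coding-exon peaks (6.46%), and 528 (27.5%) were below the 50th in both.

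Within GC ranges, coding-exon peaks scored at or below intron peaks. Their medians were 52 and 40 at 40 to 50% GC, against 52 and 41 in introns, and 54 and 48 at 50 to 60%, against 58 and 50. At 60 to 70% they were 61 and 59, against 66 and 63, and at 70% or more 62 and 63, against 75 and 78. Wider enriched regions, the hotspots, reached the highest deposited −log10 q-value of 100 at 59.6% and 59.3% of coding-exon peaks, and at 61.8% and 54.9% of intron peaks.

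**Figure D3:**
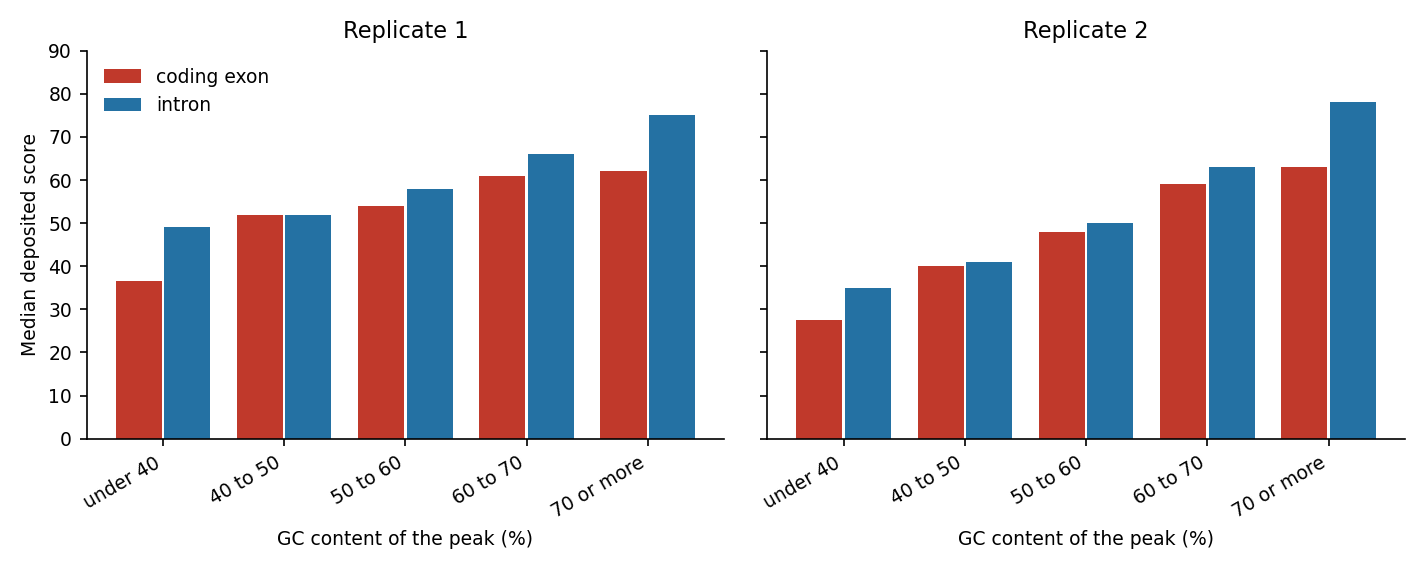
Median deposited score of distal shared peaks in coding exons and introns by GC content of the peak in percent, in replicate 1 (left) and replicate 2 (right). Medians rise with GC content, and at 50% GC or more those of coding exons are below those of introns in both replicates.

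Replication of coding-exon peaks went in opposite directions in the 2 lists. In replicate 1, 72.3% of distal coding-exon peaks had a counterpart, against 66.3% of intron peaks. In replicate 2 the shares were 70.2% and 74.1%. Among peaks in the lowest tertile of scores, 36.0% of coding-exon and 29.2% of intron peaks of replicate 1 had a counterpart, and 34.1% and 42.7% in replicate 2. In the highest tertile the shares were 97.1% and 97.9% in replicate 1, and 98.25% and 99.0% in replicate 2. The 734 coding-exon peaks of replicate 1 without a counterpart had a median score of 30, and the 874 of replicate 2 a median of 23.

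The set held a large portion of CpG-rich peaks and a smaller one with a CTCF match. A peak was called CpG island-like with at least 55% GC and an observed to expected CpG ratio of at least 0.65. There were 542 of these (28.2%), against 2.09% of intron peaks and 4.54% of all distal coding windows of 150 bp. Median GC was 58.0% for coding-exon peaks, 50.7% for intron peaks and 50.7% for distal coding windows, and the median CpG ratio was 0.466 for coding-exon peaks and 0.215 for intron peaks. CpG island-like peaks had median scores of 60 and 56.5, against 56 and 48 for the other coding-exon peaks. They lay at a median of 3.08 kb from a TSS, against 8.68 kb. A CTCF match was in 3.14% of CpG island-like peaks and 6.46% of the others, so the groups overlapped. In the last coding exon lay 35.1% of CpG island-like peaks, against 18.5% of the others, and in internal exons 32.7% against 71.02%. Repeat-masked sequence made up a mean of 4.87% of the bases of coding-exon peaks and 15.6% of those of intron peaks.

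CTCF matches were found in 106 coding-exon peaks (5.52%), against 6.996% of intron peaks, 9.03% of intergenic peaks and 0.116% of distal coding windows. The match lay wholly in coding bases in 91 of the 106, and its centre was at a median of 12.5 bp from the peak centre. The choice of the set places each midpoint in CDS, and a median of 89.3% of bases were coding over the 1919 peaks. A match in coding bases thus follows largely from the choice. Peaks with a match had median scores of 74 and 63, against 56 and 50 for the 1813 without, and lay at a median of 9.56 kb from a TSS, against 6.51 kb. By exon class the share with a match was 0.629% in first coding exons, 6.49% in internal, 6.08% in last and 1.86% in only coding exons. The strongest were the Synpo2l peak printed above, with scores of 126 and 116, Flot1 with 117 and 122, and Pdia4 with 119 and 101. Ptprj scored 101 and 117. The next were Pgls (106 and 108), Gpr153 (108 and 105), Vsig10l (106 and 105), Zscan10 (102 and 108), Kcnj10 (105 and 93) and Tmem8 (101 and 94).

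**Figure D4:**
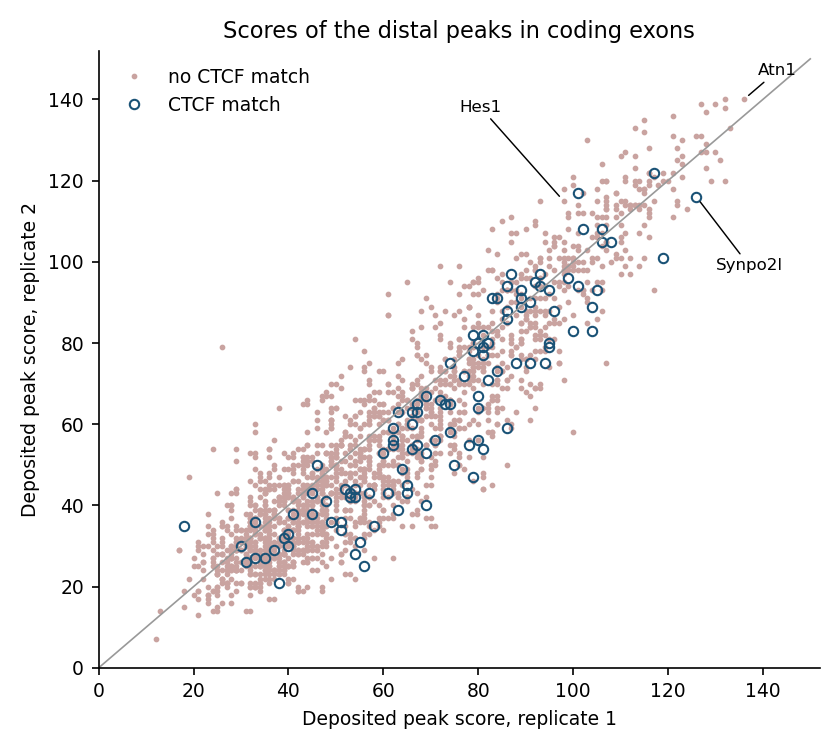
Deposited score of each of the 1919 distal peaks in coding exons in replicate 1 (horizontal) and replicate 2 (vertical), with CTCF matches as open circles and the line of equal scores. Peaks with a CTCF match have higher medians than the others (74 and 63 against 56 and 50), but Atn1 and the other top peaks have none.

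RUNX, ETS and the E-boxes CAGCTG and CACCTG were more frequent in coding-exon peaks than in coding sequence at large. Their ratios of peaks to windows of the same kind of sequence were smaller than in introns. Of other T lineage factors, TCF7/LEF1 was near the level of coding windows and GATA was below it, with values given further on. RUNX matches were in 21.7% of coding-exon peaks and 13.8% of distal coding windows, a ratio of 1.57, against 2.11 for intron peaks over intron windows. In the own lists these ratios were 1.46 ± 0.00868 and 1.95 ± 0.00343 (SD, n = 2). ETS matches were in 36.4% of coding-exon peaks, a ratio of 1.48 (own lists 1.44 ± 0.0349) against 2.00 in introns (1.88 ± 0.0574). Among the E-boxes, CAGCTG had ratios of 1.87 and 2.72 in coding exons and introns, CACCTG 1.76 and 2.37, and CAGATG 1.04 and 1.49. For CTCF the ratio was 47.8 in coding exons and 101.3 in introns, and 36.0 ± 2.10 and 75.1 ± 0.0447 in the own lists. All of these gaps were larger than the SD over replicates. The coding windows themselves held more RUNX, ETS and E-box matches than intron windows, which lowers a ratio at a given share of peaks.

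Of the remaining consensus sequences, TCF7/LEF1 was near the level of coding windows, and GATA, AP-1 and NFY were below it. TCF7/LEF1 (CTTTGA followed by A or T) was in 6.83% of coding-exon peaks, a ratio of 1.10 (own lists 1.05 ± 0.0615), against 1.27 in introns. The consensus AGATAA of GATA factors was in 3.44%, a ratio of 0.581 against 0.657 in introns. AP-1 (TGANTCA) had a ratio of 0.601 in coding-exon peaks and 1.24 in intron peaks. CCAAT, the NFY consensus, had ratios of 0.591 and 0.638. NRF1 matched 3 coding-exon peaks (0.156%), a ratio of 12.1 to coding windows (own lists 10.95 ± 3.14), against 7.83 in introns. The HNF4 and MEF2 consensuses matched none of 1919. They were rare elsewhere too, in 0.283% and 0.0105% of coding windows and in 0.103% and 0.0557% of intron peaks. In 337 peaks (17.6%) none of the 13 consensus sequences was found, with no share of intron peaks or coding windows to set beside it. At 50 to 60% GC, RUNX was in 25% of coding-exon peaks, 24.3% of intron peaks and 15.4% of coding windows, and ETS in 39.95%, 40.04% and 28.3%.

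**Figure D5:**
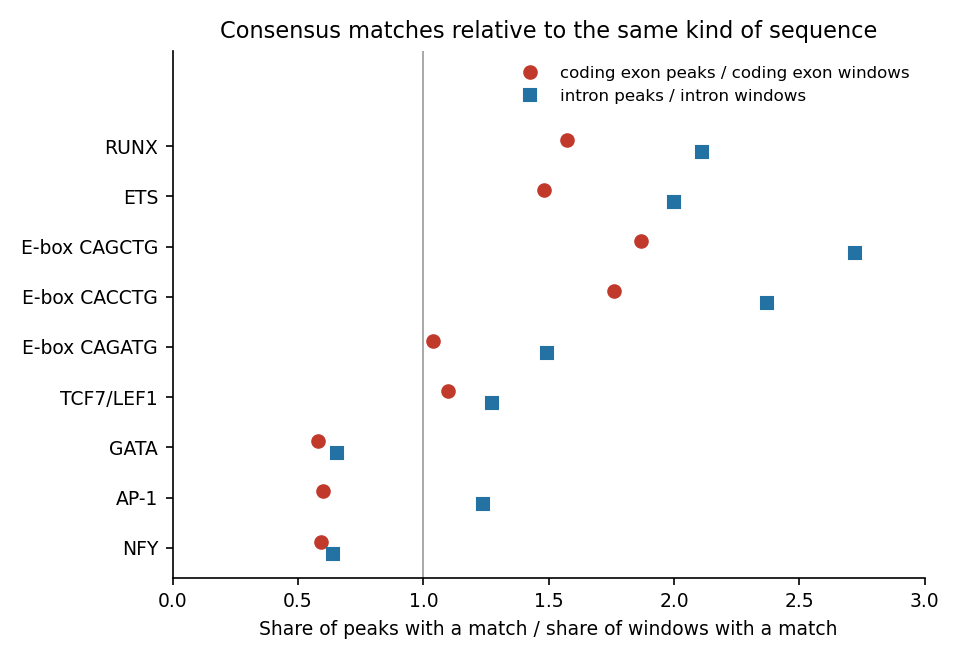
Share of distal shared peaks with a consensus match divided by the share of 150 bp windows of the same kind of sequence, for coding exons and introns, with a line at equal shares. Coding-exon peaks have the lower ratio for each of the 9 consensus sequences shown, and RUNX, ETS and the E-boxes CAGCTG and CACCTG are above 1 in both.

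The peaks were spread over many genes. Their midpoints lay in the CDS of 1654 genes, and 1653 of 18667 protein-coding genes with distal CDS (8.86%) held at least 1. A single peak accounted for 1404 genes each, 2 peaks for 201 genes, 3 for 42 and 4 for 6, and 1 gene had 5. These totals include 11 peaks with a midpoint in the CDS of 2 or more genes. The 1 among them in an exon that gamma protocadherins share counted for 25 genes. With each peak given only to the gene of its representative transcript, there were 1615 host genes. A shared promoter peak was listed for 78.95% of genes with a coding-exon peak, against 68.5% of all genes with distal CDS and 67.5% of those with none. Genes with a longer CDS have more room for a peak. In the longest quartile of distal CDS, 16.1% of genes with a promoter peak and 12.1% of those without held a coding-exon peak, and in the shortest quartile 4.72% and 2.14%.

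The gene with the most was Cmya5, which encodes the muscle protein myospryn, with 5 peaks in its exon 2 of 9310 bp. Their scores ran between 55 and 108 in replicate 1 and between 54 and 100 in replicate 2, and none was CpG island-like. The strongest, at chr13:93094676-93094825, lay 49973 bp from the nearest coding TSS but 82 bp from a TSS of another biotype. All 5 lay within 882 bp of such a TSS, so none would be in the set with TSSs of all biotypes. Rai1, a nuclear protein gene, had 4 peaks in its first coding exon of 5527 bp, with scores of 50 to 90 and 48 to 77. Hic1, a zinc finger repressor gene, had 4 in its last exon, with scores of 37 to 84 and 45 to 91, and the leucine-rich repeat gene Islr2 had 4 in its last exon, with 35 to 70 and 27 to 50. The 4 peaks of Sox21, an HMG-box factor gene of a single exon, scored lower, 32 to 35 and 36 to 46, and 3 of them overlapped each other.

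In F12, Ryr1, Kifc2, Maz and Polm the peaks fell in separate exons. F12, coagulation factor XII, had 4 peaks in exons 8, 10, 12 and 14 of 14, of which the first scored 124 and 113 and the last 99 and 99, against 43 and 36 in exon 10 and 33 and 28 in exon 12. Ryr1, the calcium release channel of skeletal muscle, had 4 in exons 48, 79, 85 and 88 of 109, with scores of 51 to 78 and 26 to 89. Kifc2, a kinesin gene, had peaks in its last 3 exons, which scored 91, 96 and 110 in replicate 1 and 88, 104 and 126 in replicate 2. Maz, a zinc finger factor gene, had 3, of which that in exon 2 scored 129 and 120. Polm, the DNA polymerase mu that fills gaps in end joining, had 3 with scores of 37 to 54 and 32 to 42. The potassium channel gene Kcna3, whose channel Kv1.3 sets the membrane potential of T cells, had 3 in its single exon with scores of 32 to 39 and 42 to 53, and 2 of these overlapped. Also with 3 peaks were Msl3l2, Sp6, B3gnt6, Lor, Smad6, Fam189b, Ddn, Lactbl1 and Fzd5. Of these, Fam189b had its peaks in separate exons and Lactbl1 had 2 in the same exon. Each of the others had all 3 in the same exon, and 2 of the Sp6 peaks overlapped.

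The 20 strongest peaks by mean percentile of both replicates scored 115 to 136 in replicate 1 and 120 to 140 in replicate 2. CpG island-like sequence made up 13 of them and none had a CTCF match, and 10 lay in internal and 7 in last coding exons. A TSS of any biotype lay within 1000 bp of 6, among them the first, the Atn1 peak printed above, which scored 136 and 140 and lay 26 bp from the start of a processed transcript of Atn1. Peaks in Aes, a Groucho-family corepressor gene (27 bp), and Dnaaf3 (25 bp) were also close to starts of non-coding transcripts. After Atn1 came Sft2d3 with 132 and 140, Abi3, a regulator of the actin cytoskeleton, with 132 and 138, and Fbxl22 with 130 and 139. Cacna1a scored 127 and 139, the zinc finger gene Zfp771 133 and 133, and Angptl6 128 and 137. Notch4, a Notch receptor gene, scored 121 and 136 in its last exon, at 79.3% GC. The others were Inpp5b, Lgals7, Sp6, Lipe, Nmnat1, Zfyve28, Map3k19, Sptbn4, Gtf2h4 and Gdf15.

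Among early thymocyte and recombination genes, 5 of 16 with distal CDS held a peak, beside 8.86% of all genes. With TSSs of all biotypes the count was 2, since the peaks of Notch1, Dtx1 and Hes1 lay 938, 752 and 813 bp from such a TSS. The density was 14.3 peaks per 100 kb of distal CDS, against 6.92 over all genes. The members were Notch1 (70 and 74), Notch3 (92 and 91), the Notch target Hes1 (98 and 115), the Notch pathway regulator Dtx1 (60 and 46) and the bHLH factor gene Lyl1 (61 and 87). Hes1 had the highest scores of them in both replicates, and it held no match to any of the consensus sequences. Genes of the recombinase, Rag1 and Rag2, and Dntt and Ptcra held none.

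Over all genes with distal CDS, 8.86% held a peak, at 6.92 per 100 kb. T cell receptor and signalling genes with a peak numbered 5 of 23, at 16.7 per 100 kb. The count was 1 with the stronger 50% of peaks and 3 with TSSs of all biotypes. They included Cd8a with peaks over exon 2 (56 and 65) and exon 5 (67 and 77), the adaptor gene Lcp2 (42 and 44), the exchange factor gene Vav1 (41 and 32) and the kinase gene Zap70 (36 and 32). The Cd8a peaks lay 1018 and 3338 bp from the TSS, and both scored higher than those of Lcp2, Vav1 and Zap70 in each replicate. T lineage transcription factors with a peak were 2 of 19, at 9.67 per 100 kb, and the count was 1 with the stronger 50% of peaks and 5 without replicate 1. Zbtb7b scored 60 and 65, and Tcf7 scored 34 and 48 over exon 5 and 31 and 26 over exon 7. The Tcf7 peaks lay 23680 and 24802 bp from the nearest coding TSS. A shared promoter peak was listed for all 19 factor genes. Of chromatin and corepressor genes, 4 of 25 held a peak (2.81 per 100 kb), or 2 with a limit of 2500 bp, with 92 and 78 at Kmt2a, 62 and 55 at Chd4, and 43 and 32 at Hdac4 among them. The median number of peaks per gene was 0 in each of these lists, as it was over all genes.

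Marker genes of other cells also held coding-exon peaks. The share over all genes with distal CDS was 8.86%, at 6.92 peaks per 100 kb, and the marker lists are short. Of myeloid and dendritic genes 4 of 14 held one (20.9 per 100 kb), namely the ETS factor gene Spi1 (75 and 74), Itgax (43 and 26), Cd14 (28 and 39) and Itgam, whose peak also lay in the CDS of the overlapping gene Gm49368 (86 and 69). Erythroid genes had 2 of 10, Klf1 with 112 and 114 and Tal1 with 48 and 53, and B cell genes 1 of 11, Spib, with 100 and 104. Endothelial genes had 2 of 12, Vwf with 2 peaks (103 and 85, and 42 and 38) and Flt1. Striated muscle genes had 5 of 12 (Myh6, Myog, Ryr1, Tnni3 and Ttn), at 5.66 per 100 kb of their long CDS. Hepatocyte genes had 3 of 12, the apolipoprotein gene Apoa1 (94 and 88), prothrombin F2 (71 and 50) and Hnf4a (33 and 29), and neuron genes 1 of 11, Neurod1 (58 and 45). Thymic epithelial (0 of 12) and mesenchymal genes (0 of 10) had none. Some of the marker peaks lay within 1000 bp of a TSS of another biotype. Among these were the stronger Vwf peak (119 bp), Neurod1 (326 bp), Tnni3 (444 bp) and 1 peak of Ryr1 (854 bp). Under the alternatives the counts ran over 2 to 5 myeloid, 1 to 3 erythroid, 1 to 2 B cell, 1 to 2 endothelial, 2 to 6 muscle, 1 to 3 hepatocyte, 0 to 2 neuron, 0 to 1 thymic epithelial and 0 mesenchymal genes. Whether peaks at these markers came from thymocytes or from other cells of the tissue was not tested.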

How the data were processed

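DNase-seq was measured in thymus of newborn mice in 1 group with 2 biological replicates, per the labels. For each replicate the authors deposited peaks with a score per peak and hotspots with a −log10 of a q-value, on mm10, called for that replicate alone, per the text deposited with them. For callers, thresholds, aligner and number of reads, the sources used here give nothing, and depth is unknown. What the score counts is not stated either. It was used only to rank peaks within a list. If its maximum of 150 is a ceiling, the strongest peaks may be compressed. The deposited −log10 q-values stop at 100.

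Annotation was GENCODE M21 on GRCm38. Peaks were shared with an overlap of at least 1 bp. The midpoint was assigned to CDS, then untranslated exon, intron and intergenic sequence, each more than 1000 bp from every coding TSS, and densities are per Mb of such sequence. The representative transcript was the protein-coding one with the longest CDS among those whose CDS holds the midpoint, and density by exon used each gene's longest transcript. Both strands of 150 bp peaks and of 150 bp windows were searched for consensus sequences (coding windows tiled without overlap, other windows on a grid of 3000 bp). The CTCF consensus had the IUPAC letters of its core, and matches of different consensus sequences may overlap.

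The peaks, the 13 gene lists, the consensus sequences and the alternatives were chosen with earlier results of these data known. Genes were named by rule: those with the most peaks (20), the 20 strongest peaks, the 10 strongest with a CTCF match, listed genes, exons with the most peaks, and the extremes of TSS distance. Some genes that the rule covers are not reported here. The sequences to print were chosen after their values were seen. The steps were tested on simulated data. Tried as alternatives were the stronger 50% of peaks, a reciprocal overlap of 50%, a limit of 2500 bp, TSSs of all biotypes, at least 50% of bases in CDS, peaks of replicate 2 in place of replicate 1, and each replicate left out. Computation used matplotlib 3.10.9, pandas 2.3.3, scipy 1.17.1 and numpy 2.4.6 in Python 3.11.15.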

Additional observations from a re-analysis of the deposited data

Results flagged for a closer look

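Distal coding-exon peaks were also listed outside the autosomes, in data that no comparison above used. On chromosome X, 15 of 2200 shared peaks had a midpoint in CDS more than 1000 bp from every coding TSS. On the autosomes it was 1919 of 101719 shared peaks. The X peaks lay in 14 genes, with median scores of 41 in replicate 1 and 42 in replicate 2, against 57 and 51 on the autosomes. Scores of all shared peaks on X were not examined, so lower scores of the whole chromosome cannot be told apart from this difference. On chromosome Y there were 0 of 24 shared peaks. A count of 0 would allow up to 3, and there were no control samples to set it against.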

How the results depend on the processing

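The ratio of coding exons to introns in peak density was 1.45 to 1.81 in every alternative but the 2 that weight introns. Weighted to the TSS distances of coding exons it was 1.24, and weighted to their GC content it reversed to 0.716. Both weightings, and leaving out peaks whose score has a decimal point, were chosen after seeing the data. Without the decimal-point peaks, the ETS share of coding-exon peaks minus that of intron peaks reversed to -0.003026 percentage points.

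With the stronger 50% of peaks, the set held 1138 peaks in 1025 genes, the internal share was 58.7%, the median TSS distance 6300 bp, GC 8 points above introns, CTCF -2.35 points and T lineage factor genes 1. With a reciprocal overlap of 50% the internal share was 61.5% and the distance 6969 bp. With 2500 bp they were 69.1% and 10993 bp, with GC 6.67 points above introns. With TSSs of all biotypes they were 56.6% and 7209 bp, with CTCF -1.09 points. With 50% of bases in CDS the internal share was 59.7% and GC 8 points above, with peaks of replicate 2 it was 61.5% and the distance 6942 bp, and without decimal-point peaks it was 60.7%.

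Leaving out a replicate gave 2653 to 2931 peaks in 2133 to 2292 genes, an internal share of 60.9% to 61.4%, a distance of 6720 to 6969 bp, GC 7.33 to 8 points above introns, CTCF -1.19 to -0.854 points and 3 to 5 T lineage factor genes. The median percentile was above introns by 5.11 points (replicate 1) and 1.37 points (replicate 2). The cause of these shifts was not tested. No paired analysis was possible because there was 1 group. With 2 replicates of unknown depth, peaks missed in 1 list cannot be told apart from closed sites.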

Other observations

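Gene families differed in how often their coding exons held a distal shared peak, beside 8.86% of all genes with distal CDS and 6.92 peaks per 100 kb. These families were chosen after the lists were seen and are given without a test. Potassium channel genes had peaks in 16 of 78 genes (16.8 per 100 kb), among them Kcna3, Kcng2 and Kcna7. Keratin genes had 8 of 53 (14.7 per 100 kb), among them Krt1 and Krt75. Kinesin and myosin heavy chain genes had 17 of 77, but with their long CDS only 5.50 per 100 kb. Zinc finger genes had 35 of 453 (5.22 per 100 kb) and solute carrier genes 19 of 329 (4.11 per 100 kb). Collagen genes had 4 of 43 (3.24 per 100 kb) and cytochrome P450 genes 9 of 100 (8.71 per 100 kb). Of olfactory receptor genes 1 of 276 held a peak, Olfr1358, and of vomeronasal receptor genes 0 of 170.

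Coding-exon peaks had other peaks close by. The nearest other shared peak lay at a median of 1.46 kb, against 2.02 kb for intron peaks, and within 1 kb for 41.6% of coding-exon peaks and 35.6% of intron peaks. Shared peaks at promoters counted as neighbours, and coding-exon peaks lay nearer to a coding TSS (medians 6.63 and 15.6 kb). Whether the difference holds at equal distance to the TSS was not tested. RUNX matches were on the sense strand of the host gene in 179 coding-exon peaks and on the other strand in 221, against 14184 and 13552 distal coding windows. CTCF matches were on the sense strand in 44 coding-exon peaks and on the other strand in 62, against 90 and 151 windows.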
